A study of Homo sapiens with 4 samples.

Results

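Semaphorin signalling was followed through 10 genes in the human renal clear cell carcinoma line 769-P, out of 58735 genes listed for each library. The genes are the semaphorins SEMA3A, SEMA3C and SEMA4B, the receptors NRP1, NRP2, PLXNA1 and PLXNB2, and the cytosolic collapsin response mediator proteins DPYSL2, DPYSL3 and CRMP1. They were taken by gene name, and the list was drawn up with the doxycycline and untreated levels of these libraries in view, so they count as chosen by their FPKM in this comparison and are given as a description with no test. Of the 10 genes, 8 averaged 1 FPKM or more (fragments divided by gene length in kilobases and by library size) over the 4 libraries and entered the fit across genes, as did 12029 genes in all, while NRP2 and SEMA3A did not.

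Libraries were made from total RNA, and how RNA was selected and whether strand was kept are not given in the sources used here. The doxycycline group (2 libraries) received 1 µg/ml for 4 days to switch on a short hairpin RNA against USP35, a ubiquitin-specific protease, and the untreated group (2 libraries) did not. Both groups are wild-type 769-P cells with the stably transfected inducible hairpin and grew under puromycin. Cells given the drug but lacking the hairpin were not analysed here, so an effect of the drug and of the hairpin cannot be told apart. The labels name a single line and do not say whether replicates were separate cultures, so spread and p-values cover the difference between these libraries, which may be technical.

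Semaphorins are guidance cues that repel or attract growing axons and migrating cells. The secreted class, to which SEMA3A and SEMA3C belong, binds neuropilins, which have short tails and pass the signal on through A-type plexins, whereas transmembrane semaphorins such as SEMA4B can bind plexins directly. Plexins switch off small GTPases of the Ras family and act on GTPases that control actin, and the collapsin response mediator proteins carry the response to the microtubules after phosphorylation by CDK5 and GSK3B. In the kidney, secreted semaphorins are known from podocytes and from branching of the ureteric bud, mainly in mouse.

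The libraries held 17481827 and 18764546 recovered reads with doxycycline and 16319640 and 17244546 reads in untreated cells. USP35 stood at 2.11 and 2.54 FPKM with doxycycline, against 3.31 and 4.19 FPKM in untreated cells (ratio 0.62, limma adjusted p = 0.256). The doxycycline libraries stand apart from each other: 6.77% of the 12029 genes differed at least 2-fold between them, against 1.12% between the untreated libraries. Replicate 1 with doxycycline differed from the untreated libraries at 6.5% and 5.7% of genes, no more than from its own replicate, and replicate 2 at 12.9% and 9.34%. The summed level of 10 interferon response genes was 1440 FPKM in replicate 1 with doxycycline and 170 FPKM in the other, set against 95.8 and 99.5 FPKM in untreated cells. Mitochondrially encoded genes took 7.44% and 14.6% of reads with doxycycline, against 8.21% and 8.5% in untreated cells. The 6 MCM genes of the replicative helicase summed to 109 and 98.0 FPKM with doxycycline, against 308 and 279 FPKM in untreated cells. Of these, 6 of 6 were below in both libraries, a position held by 28.9% of the 12029 genes. Values of each doxycycline library are therefore given singly, and the part of these features in the results was not tested.

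Of the renal markers, PAX8, a kidney lineage factor, was at 49.4 and 38.5 FPKM with doxycycline and at 48.6 and 53.9 FPKM in untreated cells. CA9 and NDUFA4L2, usual markers of clear cell carcinoma, reached no more than 0.0899 FPKM in any library. CA12, a carbonic anhydrase, held 48.2 and 59.8 FPKM with doxycycline, against 13.3 and 17.3 FPKM in untreated cells (limma adjusted p = 0.0573). Of the 10 renal markers, 4 entered the fit, where 2 (CA12 and PAX2) were above in both doxycycline libraries, 0 below, and the median log2 difference was 0.49. Among all genes in the fit, 24.3% were above and 28.9% below. Of the markers of other cell types, PECAM1, CDH5 and KDR (endothelium), LYZ and CD3E (leukocytes) and LUM (fibroblasts) were at 0 in all 4 libraries. Summed levels with doxycycline and in untreated cells were 0.0206 to 0.0795 and 0.0184 to 0.0335 FPKM for 6 endothelial markers. They were 0.193 to 0.225 and 0.717 to 0.811 FPKM for 6 fibroblast markers, and 0.126 to 0.144 and 0.0525 to 0.235 FPKM for 6 leukocyte markers.

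The clearest differences lay among the collapsin response mediator proteins and SEMA3C, whose doxycycline levels were all below the untreated ones. NRP2, at a low level, had a ratio of means of 0.644, and the plexins PLXNA1 and PLXNB2 had ratios of 0.810 and 0.879, while SEMA4B and NRP1 overlapped between the groups. Counted together, both doxycycline libraries lay below both untreated libraries for 7 of the 10 genes and above both for 0. Among the 8 genes in the fit, 6 were below, a position held by 28.9% of the 12029 genes, and 0 above, a position held by 24.3%. The ratio of group means was 0.5 or less for 2 of the 8, DPYSL3 and SEMA3C, as for 6.07% of all genes in the fit. The median log2 difference was -0.44 over the 8 genes and -0.03 over all 12029. Since these values chose the genes, nothing is read from these counts. In RNA from whole cultures, fewer cells expressing a gene and less RNA per cell cannot be told apart.

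**Figure D1:**
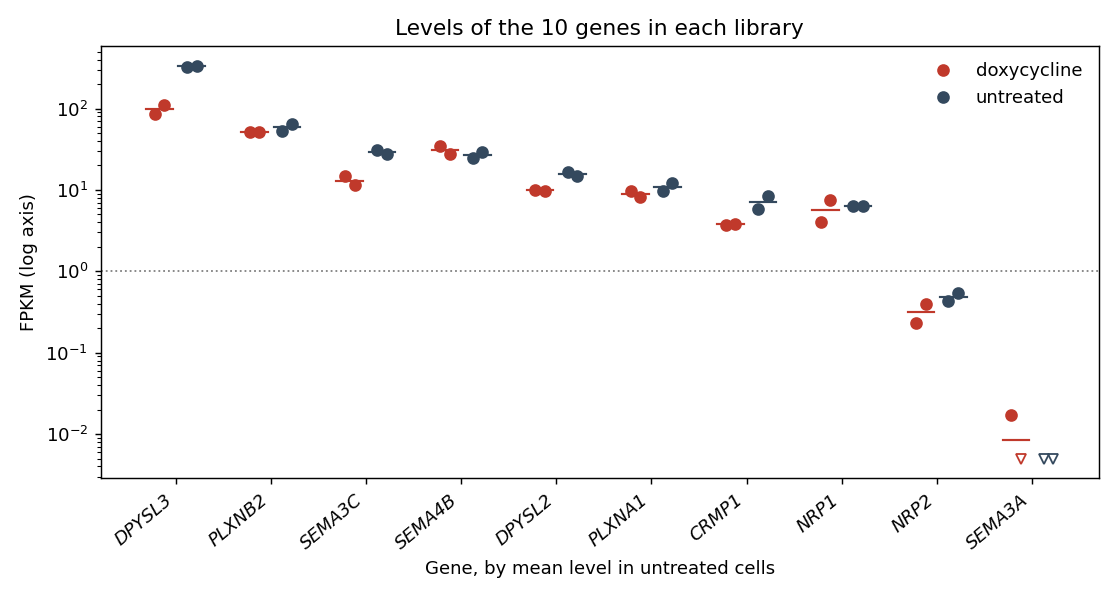
FPKM (log axis) of the 10 genes, ordered by their mean in untreated cells, with doxycycline libraries in red at the left and untreated libraries in dark blue at the right of each gene. Points are libraries, short bars are means of 2, open triangles are values of 0 drawn at the bottom, and the dotted line is 1 FPKM. DPYSL3 is highest in both groups and shows the widest gap between them.

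DPYSL3 encodes a collapsin response mediator protein that binds actin and microtubules in growth cones and migrating cells. It held 86.9 and 109 FPKM with doxycycline, against 326 and 337 FPKM in untreated cells. All pairs of libraries were separated, with the higher doxycycline library below the lower untreated one by a wide margin. The means were 98.1 ± 15.8 FPKM and 331 ± 8.39 FPKM (SD, n = 2 each), a ratio of 0.296, and the 4 ratios of a doxycycline to an untreated library ran from 0.258 to 0.336. The log2(FPKM + 1) difference was -1.76 ± 0.24 (SE), made up of -1.92 in replicate 1 and -1.59 in replicate 2.

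These levels rest on 11706 and 14330 reads with doxycycline and 36997 and 42095 reads in untreated cells. DPYSL3 took 0.067% and 0.0764% of all reads with doxycycline, against 0.227% and 0.244% in untreated cells. Among the 12029 genes in the fit it ranked 358 and 247 by level with doxycycline, against 75 and 63 in untreated cells. It was thus among the most abundant transcripts of untreated 769-P cells. Of all genes in the fit, 0.374% had a lower log2 difference than DPYSL3, on a scale where changes of low genes come out too small. By ratio of group means, DPYSL3 ranked 120 from the lowest of the 12029 genes.

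DPYSL3 (ENSG00000113657) lies on GRCh38 chromosome 5, 147390811 to 147510056, minus strand, and its exons overlap no other annotated gene. RefSeq lists 2 promoter windows for it, 1 at the upstream end of the gene and 1 inside it, whose start lies 56364 bases from the annotated gene start. They are shown because the gene has the largest difference of the 10 and a gene-level value cannot tell which start the reads came from. Each window runs from 250 bases before to 50 bases after a RefSeq start (GRCh38.p14, 5′ to 3′ on the gene's strand). The upstream window is chr5:147510019-147510318 and the inner window chr5:147453643-147453942, both on the minus strand. Capitals mark the GC box GGGCGG or its reverse CCGCCC, read on both strands, the motif of Sp and KLF factors.
DPYSL3 upstream: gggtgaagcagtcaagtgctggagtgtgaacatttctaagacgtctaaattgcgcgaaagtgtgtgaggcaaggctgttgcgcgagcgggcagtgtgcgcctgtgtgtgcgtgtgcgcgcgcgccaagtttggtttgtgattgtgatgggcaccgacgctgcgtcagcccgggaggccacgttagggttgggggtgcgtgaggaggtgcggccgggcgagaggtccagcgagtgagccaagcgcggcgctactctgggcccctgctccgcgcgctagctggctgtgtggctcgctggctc
DPYSL3 inner: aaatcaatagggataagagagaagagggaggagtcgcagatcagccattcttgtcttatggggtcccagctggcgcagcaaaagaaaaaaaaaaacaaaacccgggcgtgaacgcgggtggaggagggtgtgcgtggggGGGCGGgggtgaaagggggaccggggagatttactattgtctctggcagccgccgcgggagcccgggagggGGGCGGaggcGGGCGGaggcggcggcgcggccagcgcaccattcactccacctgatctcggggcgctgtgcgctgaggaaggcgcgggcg
The upstream window held 0 GC boxes and 29 CpG, and the inner window 3 GC boxes and 27 CpG. Of 35116 RefSeq promoter windows of the same length, 45.0% held a GC box and the median CpG count was 14. A match in such a window is a description of its letters, and which start was in use was not measured.

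DPYSL2, the most widely expressed collapsin response mediator protein and a carrier of tubulin dimers, was also lower in both doxycycline libraries. It held 10.0 and 9.82 FPKM with doxycycline, against 16.5 and 14.8 FPKM in untreated cells. The groups were apart and each was narrow, with means of 9.92 ± 0.13 and 15.7 ± 1.19 FPKM (SD, n = 2 each) and a ratio of 0.633. The log2 difference was -0.61 ± 0.18 (SE), and -0.60 and -0.62 in the doxycycline libraries taken singly. Reads numbered 1375 and 1314 with doxycycline and 1914 and 1887 in untreated cells. DPYSL2 (ENSG00000092964, plus strand of chromosome 8) shares 71 bases of exon with PNMA2 on the other strand.

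CRMP1, a neuronal member of the same family, held 3.71 and 3.84 FPKM with doxycycline, against 5.83 and 8.54 FPKM in untreated cells. The doxycycline libraries nearly coincided, below 2 untreated libraries that were themselves far apart. The means were 3.77 ± 0.09 and 7.19 ± 1.91 FPKM (SD, n = 2 each), a ratio of 0.525, and the log2 difference was -0.76 ± 0.22 (SE). CRMP1 (ENSG00000072832) lies on chromosome 4, 5748084 to 5893058, minus strand. It shares 159 bases, 2.73% of its gene length, with exons of EVC on the other strand. EVC was at 7.72 and 8.79 FPKM with doxycycline and at 8.0 and 17.8 FPKM in untreated cells, so untreated replicate 2 was the highest library for both genes. Without known strandedness, reads of the shared stretch cannot be told apart, and the part of EVC in the CRMP1 values was not tested.

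The upstream CRMP1 window (chr4:5893037-5893336, minus strand) is shown to set beside DPYSL3, because CRMP1 was lower too. RefSeq lists 4 windows for CRMP1.
CRMP1 upstream: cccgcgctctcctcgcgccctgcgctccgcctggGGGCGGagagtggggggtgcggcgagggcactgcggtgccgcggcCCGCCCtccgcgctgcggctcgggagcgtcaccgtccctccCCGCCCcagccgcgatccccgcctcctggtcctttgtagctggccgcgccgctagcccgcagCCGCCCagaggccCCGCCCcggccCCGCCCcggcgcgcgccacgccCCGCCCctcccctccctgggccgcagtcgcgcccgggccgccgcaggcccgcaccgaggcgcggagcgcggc
This window held 7 GC boxes and 49 CpG, against 0 and 29 in the upstream DPYSL3 window. The upstream windows of the pair therefore differ in the GC box although both genes were lower with doxycycline. The inner DPYSL3 window held 3 GC boxes, the other CRMP1 windows held 1, 7 and 2, and which start was in use was not measured. Nothing about a factor follows from that.

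Ratios between genes of the same library do not depend on how libraries were scaled. DPYSL3 exceeded DPYSL2 by 8.68-fold and 11.1-fold in FPKM in the doxycycline libraries, against 19.7-fold and 22.7-fold in untreated cells. It exceeded CRMP1 by 23.4-fold and 28.5-fold with doxycycline, against 55.8-fold and 39.5-fold in untreated cells. Both ratios were lower with doxycycline, with no overlap between groups. Its share of the summed FPKM of DPYSL2, DPYSL3, CRMP1, DPYSL4 and DPYSL5 was 84.8% and 87.7% with doxycycline, against 93.1% and 92.8% in untreated cells. DPYSL3 stayed the main transcript of the family in all 4 libraries. DPYSL2 over CRMP1 was 2.7 and 2.56 with doxycycline and 2.83 and 1.74 in untreated cells, and the groups overlapped.

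**Figure D2:**
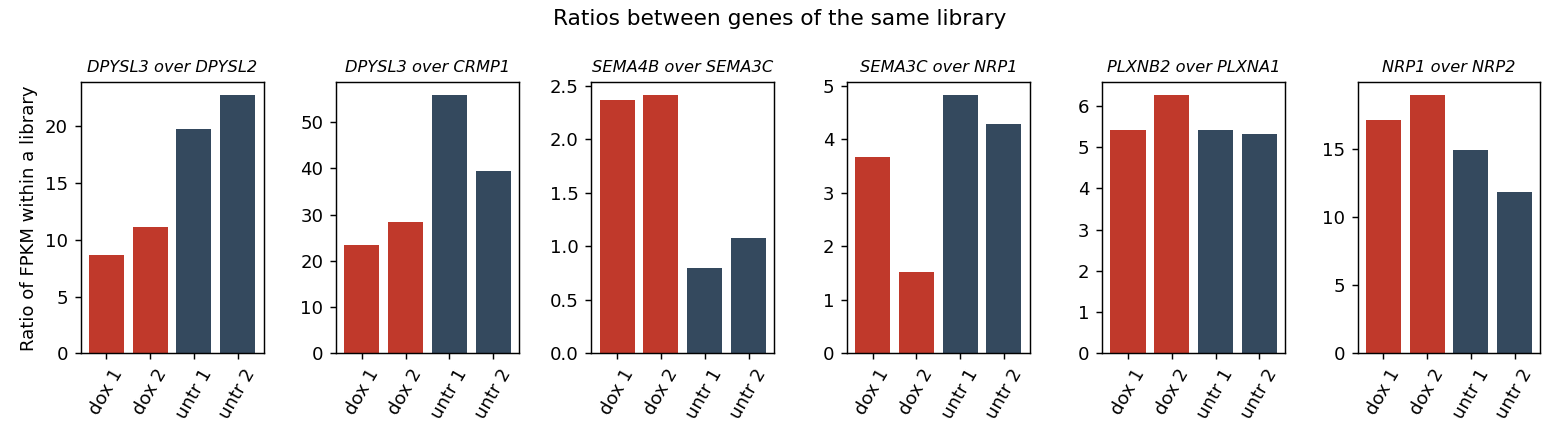
Ratios of FPKM between a pair of genes within a library, as bars from 0, with doxycycline libraries (dox, red) left and untreated libraries (untr, dark blue) right. The ratios of DPYSL3 to DPYSL2 and to CRMP1 are lower and that of SEMA4B to SEMA3C is higher in both doxycycline libraries, while PLXNB2 over PLXNA1 stays between 5.3 and 6.25.

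Among the ligands, SEMA3C, a secreted semaphorin that signals through neuropilins and plexins, was the gene with the next largest difference. It held 14.6 and 11.4 FPKM with doxycycline, against 31.0 and 27.4 FPKM in untreated cells. Every doxycycline value was below every untreated value. The means were 13.0 ± 2.27 and 29.2 ± 2.56 FPKM (SD, n = 2 each), a ratio of 0.446, with 4 library-to-library ratios between 0.368 and 0.534. The log2 difference was -1.11 ± 0.21 (SE), and -0.95 and -1.28 in the single doxycycline libraries. These values rest on 1724 and 1311 reads with doxycycline and 3084 and 2990 reads in untreated cells. SEMA3C (ENSG00000075223) lies on GRCh38 chromosome 7, 80742538 to 80922359, minus strand, with no exon shared with another gene, and its transcripts share 11 windows of 50 bases with those of SEMA3E, which was at most at 0.013 FPKM.

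RefSeq lists 2 windows for SEMA3C, the upstream one at chr7:80922340-80922639 and the inner one at chr7:80919002-80919301, both on the minus strand. Both are shown because they differ in base composition, with GC boxes in capitals as before.
SEMA3C upstream: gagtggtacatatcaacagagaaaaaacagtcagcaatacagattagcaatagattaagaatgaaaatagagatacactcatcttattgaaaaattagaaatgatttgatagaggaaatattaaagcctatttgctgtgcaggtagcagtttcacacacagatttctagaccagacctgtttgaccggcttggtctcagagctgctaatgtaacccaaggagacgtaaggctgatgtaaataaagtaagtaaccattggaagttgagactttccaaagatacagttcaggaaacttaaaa
SEMA3C inner: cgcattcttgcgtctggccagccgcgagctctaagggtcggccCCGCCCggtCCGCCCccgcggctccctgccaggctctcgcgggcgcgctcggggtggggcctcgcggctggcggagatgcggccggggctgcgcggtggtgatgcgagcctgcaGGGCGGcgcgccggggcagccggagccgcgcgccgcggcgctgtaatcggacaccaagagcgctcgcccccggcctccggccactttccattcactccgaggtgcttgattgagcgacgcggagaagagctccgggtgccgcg
The upstream window held 2 CpG at a GC content of 36.0%, and the inner window 46 CpG and 3 GC boxes at a GC content of 75.7%. The gene-level FPKM cannot be divided between these starts. Over the 14 windows that RefSeq lists for 7 of the genes (DPYSL3, CRMP1, NRP2, PLXNA1, PLXNB2, SEMA3C and SEMA4B), 11 held a GC box and 0 held TATAAA on either strand. Among the 35116 windows, 11.5% held that motif. The CCAAT box, on either strand, was in 2 of the 14 windows and in 34.6% of all windows. The palindromic E box CACGTG was in 1 of the 14 and in 7.26% of all windows.

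SEMA4B, a transmembrane semaphorin, held 34.6 and 27.5 FPKM with doxycycline, against 24.8 and 29.5 FPKM in untreated cells. The groups overlapped, since doxycycline replicate 2 lay between the untreated libraries. The means were 31.1 ± 5.06 and 27.2 ± 3.31 FPKM (SD, n = 2 each), and the log2 difference was 0.18 ± 0.22 (SE). It was 0.02 without doxycycline replicate 1 and 0.35 without replicate 2, and 0.06 without untreated replicate 1 and 0.30 without untreated replicate 2. SEMA4B over SEMA3C was 2.37 and 2.41 with doxycycline, against 0.8 and 1.08 in untreated cells. SEMA4B (ENSG00000185033) lies on chromosome 15, 90160604 to 90229679, plus strand. The order of these semaphorins was therefore clear with doxycycline, where SEMA4B was higher, and was not resolved in untreated cells, where their values overlapped.

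SEMA3A, the founding secreted semaphorin, known in chick as collapsin, was at or near 0. It held 3 reads in doxycycline replicate 1 (0.017 FPKM) and 0 reads in doxycycline replicate 2, against 0 reads in both untreated libraries. A count of 0 allows up to 3 reads, or 0.0175 FPKM in doxycycline replicate 2 and 0.0202 and 0.0184 FPKM in the untreated libraries, counting error only. A difference between the groups was not detectable at this depth.

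Of the receptors, NRP1, which binds secreted semaphorins and VEGF, lay on opposite sides of the untreated level in the doxycycline libraries. Replicate 1 with doxycycline held 4.00 FPKM and replicate 2 held 7.45 FPKM, while untreated cells held 6.43 and 6.38 FPKM. The untreated libraries were nearly equal and lay between the doxycycline libraries. The means were 5.72 ± 2.43 and 6.41 ± 0.03 FPKM (SD, n = 2 each), and the log2 difference was -0.19 ± 0.27 (SE). Taken singly, it was -0.57 in doxycycline replicate 1 and 0.19 in replicate 2, so the direction turned when replicate 1 was left out. These libraries also differed in the interferon sum (1440 and 170 FPKM) and in the mitochondrial share (7.44% and 14.6%), and the part of either in the NRP1 values was not tested. NRP1 (ENSG00000099250) lies on chromosome 10, 33177492 to 33336262, minus strand. It shares 561 bases of exon with the antisense gene AL121748.2, which was at most at 0.0735 FPKM.

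NRP2, the paralogue of NRP1 with a preference for other semaphorins and for VEGF-C, was low throughout. It held 0.23 and 0.39 FPKM (61 and 100 reads) with doxycycline, against 0.43 and 0.54 FPKM (95 and 131 reads) in untreated cells. The groups did not overlap, but doxycycline replicate 2 and untreated replicate 1 were close, at a ratio of 0.912. The log2 difference was -0.18, and -0.09 without doxycycline replicate 1. NRP1 over NRP2 was 17.1 and 18.9 with doxycycline and 14.9 and 11.8 in untreated cells, so NRP1 was the main neuropilin transcript in every library. SEMA3C over NRP1 was 3.66 and 1.53 with doxycycline, against 4.82 and 4.29 in untreated cells, lower in both doxycycline libraries and by an unequal amount.

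PLXNB2, a B-type plexin widespread in epithelia, was the most abundant receptor of the 10 genes. It held 52.2 and 50.9 FPKM with doxycycline, against 52.7 and 64.6 FPKM in untreated cells. PLXNA1, an A-type plexin that pairs with neuropilins, held 9.63 and 8.14 FPKM with doxycycline, against 9.76 and 12.2 FPKM in untreated cells. For both genes doxycycline lay below untreated, but doxycycline replicate 1 and untreated replicate 1 nearly coincided, with ratios of 0.990 for PLXNB2 and 0.987 for PLXNA1. Log2 differences were -0.18 ± 0.22 (SE) for PLXNB2 and -0.27 ± 0.20 (SE) for PLXNA1. Both rested on single libraries: PLXNB2 was at -0.32 without untreated replicate 1 and -0.03 without untreated replicate 2, and PLXNA1 at -0.42 and -0.13. Without doxycycline replicate 2, PLXNA1 was at -0.16. Under median-of-ratios scaling, by voom and with library totals that leave out mitochondrially encoded genes, the groups overlapped for both plexins, and 5 of the 10 genes stayed separated (DPYSL3, SEMA3C, DPYSL2, CRMP1 and NRP2). Under quantile normalization the difference of PLXNB2 was -0.01. PLXNB2 (ENSG00000196576) lies on chromosome 22, 50274979 to 50307627, minus strand, and PLXNA1 (ENSG00000114554) on chromosome 3, 126988594 to 127037392, plus strand.

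**Figure D3:**
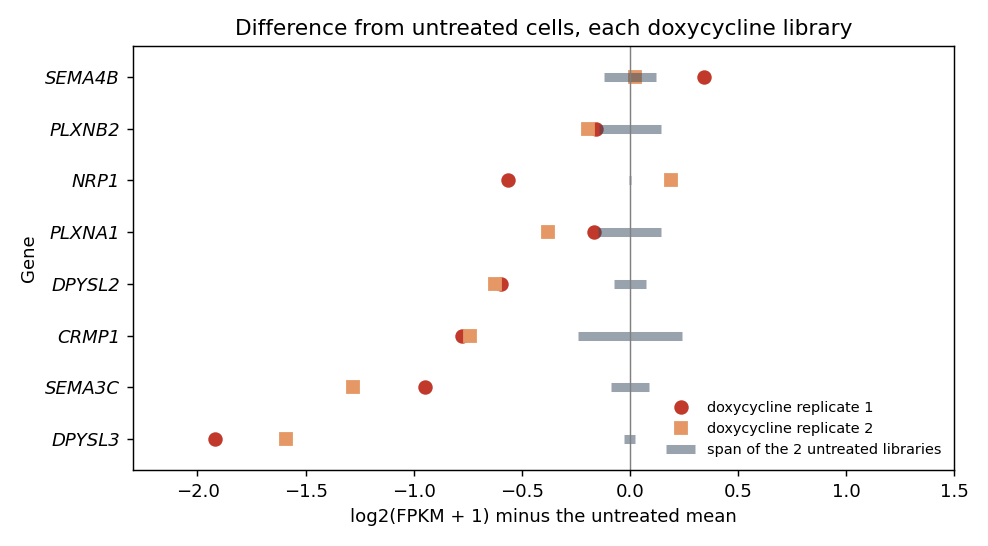
Log2(FPKM + 1) of each doxycycline library minus the untreated mean for the 8 genes in the fit. Circles are doxycycline replicate 1, squares replicate 2, and the grey bar spans the 2 untreated libraries. DPYSL3, SEMA3C, CRMP1 and DPYSL2 lie well left of the grey bar in both libraries, and NRP1 lies on opposite sides of it. PLXNA1 and PLXNB2 also lie left of it, narrowly so in doxycycline replicate 1.

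FPKM is scaled to gene length, so levels can be ordered across genes. With doxycycline the order was DPYSL3, PLXNB2, SEMA4B, SEMA3C, DPYSL2, PLXNA1, NRP1, CRMP1, NRP2 and SEMA3A, and no neighbours overlapped between their 2 libraries. In untreated cells it was DPYSL3, PLXNB2, SEMA3C, SEMA4B, DPYSL2, PLXNA1, CRMP1, NRP1, NRP2 and SEMA3A. There SEMA3C and SEMA4B overlapped, as did CRMP1 and NRP1, and the other neighbours did not. The same pairs changed places between the groups.

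Other genes of the pathway were taken from family lists of 20 semaphorins, 9 plexins, 15 neuropilin partners and ligands, 6 members of the dihydropyrimidinase and collapsin response mediator family and 30 kinases, small GTPases and their effectors. Without the 10 genes these lists held 70 genes, of which 41 entered the fit. By limma with adjustment over all 12029 genes, 0 of the 41 were higher and 0 lower, where 0.0% of all genes passed. At an unadjusted p under 0.05, 2 were higher and 8 lower (24.4% of the 41), against 18.3% of all 12029 genes, 778 higher and 1426 lower. That split became 1162 higher and 1115 lower with totals that leave out mitochondrially encoded genes. The median log2 difference was -0.16 over the 41 and -0.03 over all genes. Leaving out a library leaves a lone one in its group. Counts from such fits are therefore given only as ranges among the processing alternatives, and nothing is read from them. Voom on recovered reads passed 121 of the 12029 genes, and 1 of the 41, SEMA7A (limma-voom adjusted p = 0.0493).

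Of the other semaphorins, SEMA7A, a membrane-anchored semaphorin that binds integrins and PLXNC1, held 0.73 and 0.34 FPKM with doxycycline, against 5.81 and 3.72 FPKM in untreated cells. Its ratio of means was 0.113 and its log2 difference -1.89 ± 0.26 (SE) (limma adjusted p = 0.0573). SEMA6B, a transmembrane semaphorin that binds A-type plexins, held 2.76 and 3.74 FPKM with doxycycline, against 9.46 and 9.70 FPKM in untreated cells. Its ratio was 0.339 and its log2 difference -1.33 ± 0.19 (SE) (limma adjusted p = 0.0573). Both lay just above the threshold, at an adjusted value shared with CA12, with groups wide apart. Without doxycycline replicate 1 the log2 difference was -2.07 for SEMA7A and -1.16 for SEMA6B, and without replicate 2 it was -1.71 and -1.49. Without untreated replicate 1 it was -1.63 and -1.34, and without untreated replicate 2 it was -2.16 and -1.31. SEMA6A, the most abundant semaphorin outside the 10 genes, overlapped between groups at 15.2 and 22.9 FPKM with doxycycline and 15.2 and 20.9 FPKM in untreated cells. Of the 8 other semaphorins in the fit, 0 were higher and 3 lower at an unadjusted limma p under 0.05, where 6.47% and 11.9% of all genes were.

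**Figure D4:**
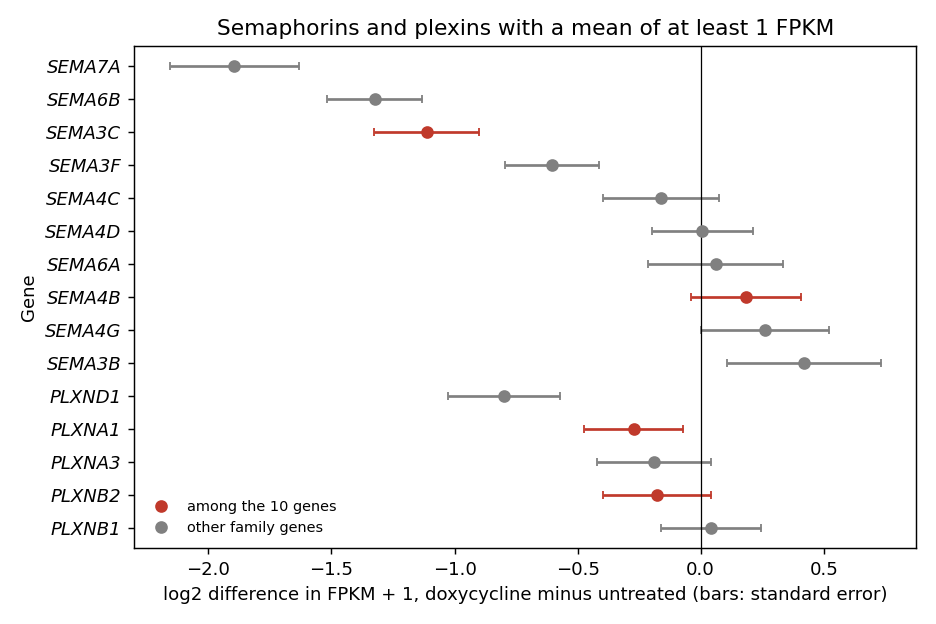
Log2 difference in FPKM + 1, doxycycline minus untreated, for the 10 semaphorins and 5 plexins in the fit, with standard errors from the limma fit as bars. Red points are among the 10 genes and grey points are other family members. SEMA7A, SEMA6B, SEMA3C and SEMA3F lie lowest among semaphorins, and PLXND1 lies lowest among plexins.

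PLXND1, the vascular plexin, held 3.20 and 3.79 FPKM with doxycycline, against 5.54 and 8.30 FPKM in untreated cells (log2 difference -0.80, limma adjusted p = 0.168). PLXNA3 and PLXNB1 overlapped between the groups, with PLXNB1 at 6.97 and 7.06 FPKM with doxycycline and 5.78 and 7.92 FPKM in untreated cells. PLXNA3 had a log2 difference of -0.19 (limma adjusted p = 0.685). The log2 difference of PLXND1 was -0.705 without doxycycline replicate 1 and -0.89 without replicate 2.

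Around the neuropilins, NRCAM, a cell adhesion molecule that can join semaphorin receptor complexes, held 5.29 and 7.41 FPKM with doxycycline, against 2.31 and 2.75 FPKM in untreated cells. Its log2 difference was 1.04 ± 0.21 (SE), which missed the threshold (limma adjusted p = 0.0914). The log2 difference of NRCAM was 1.26 without doxycycline replicate 1 and 0.83 without replicate 2. Without untreated replicate 1 it was 0.95, and without untreated replicate 2 it was 1.14. VEGFB, a growth factor that binds NRP1, held 32.0 and 29.8 FPKM with doxycycline, against 46.8 and 47.9 FPKM in untreated cells (limma adjusted p = 0.209). VEGFA, on the same list and chosen after its values were seen, held 20.4 and 5.23 FPKM in doxycycline replicates 1 and 2. Untreated cells held 6.66 and 5.18 FPKM of VEGFA, so the groups overlapped. MET, the receptor of hepatocyte growth factor and a partner of B-type plexins, was the most abundant of this list at 126 and 122 FPKM with doxycycline and 110 and 116 FPKM in untreated cells (limma adjusted p = 0.765). The VEGF receptors KDR and FLT1, which share ligands with the neuropilins, were at 0 in all 4 libraries.

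Downstream, RND3, an atypical small GTPase that opposes RHOA signalling, held 15.8 and 13.0 FPKM with doxycycline, against 7.07 and 6.50 FPKM in untreated cells. Its log2 difference was 0.98 ± 0.19 (SE) (limma adjusted p = 0.0828). It passed when the filter was raised to a mean of 5 FPKM (limma adjusted p = 0.0433), as did SEMA6B (0.0305). The log2 difference of RND3 was 0.845 without doxycycline replicate 1 and 1.11 without replicate 2. Without untreated replicate 1 it was 1.03, and without untreated replicate 2 it was 0.93. LIMK2, a kinase that inactivates cofilin, held 1.70 and 1.76 FPKM with doxycycline, against 3.02 and 3.07 FPKM in untreated cells (limma adjusted p = 0.196). RHOA itself was the most abundant gene of this list, at 140 and 150.4 FPKM with doxycycline and 188 and 164 FPKM in untreated cells (limma adjusted p = 0.549). DPYSL4, the other relative of DPYSL3 in the fit, overlapped between groups at 1.64 and 1.17 FPKM with doxycycline and 1.13 and 1.61 FPKM in untreated cells (limma adjusted p = 0.969).

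The genes most like DPYSL3 over the 4 libraries were found by Euclidean distance between log2(FPKM + 1) values centred on each gene's mean, among 12028 other genes. They were SDC1, U2AF1L5, DCBLD2, FAM83D and GTSE1, at distances of 0.18 to 0.25. DCBLD2, the most abundant of them, held 30.9 and 40.6 FPKM with doxycycline, against 102 and 105 FPKM in untreated cells. U2AF1L5 is a near-identical copy of U2AF1, so its values are uncertain. For NRP1 the nearest genes were MAPK3, TENT4B, PANK1, BHMT2 and HOXA-AS2, at distances of 0.01 to 0.08, each with doxycycline replicate 1 below and replicate 2 above the untreated libraries. MAPK3 held 4.32 and 7.93 FPKM with doxycycline and 6.96 and 6.90 FPKM in untreated cells. With 4 libraries, such likeness describes these values only.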

How the data were processed

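RNA sequencing of 2 doxycycline and 2 untreated libraries of 769-P cells was deposited as 1 table per library. The values were deposited as FPKM by the authors, per the file headers. The submitters' processing notes list limma, HISAT2 (2.0.5) and featureCounts (1.5.0-p3), with no role for any. The sources used here give neither build nor library size. Identifiers, coordinates and strand of all 58735 genes equalled GENCODE release 29 on GRCh38.

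Multiplying FPKM by gene length and by a constant of the library gave whole reads for 100.0% of genes (tolerance 0.02 reads), hence reads and depth of 16319640 to 18764546 per library. Without molecular identifiers, reads are not independent molecules, so floors of 3 reads hold counting error alone.

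The 12029 genes averaging 1 FPKM or more were fitted as log2(FPKM + 1) by limma-trend (limma 3.58.1, R 4.3.3). The test was two-sided without covariates, left 2 residual degrees of freedom, and used a Benjamini-Hochberg threshold of 0.05. Differences are doxycycline minus untreated on that scale, where changes of low genes come out too small. Ratios are of mean FPKM. Tables used Python 3.11.15 and pandas 2.3.3. The recovery of reads and the fit were tested on simulated data. The groups simulated for the fit had equal spread, unlike the libraries here. That test therefore does not show how the fit performs at the spread seen here. Promoter windows are RefSeq's (GRCh38.p14), matched by symbol. Some items are not reported here.

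The members and lists were chosen with earlier results of these data known. Genes named are the 10, USP35, the 2 lowest p and the highest level among other genes of each pathway list, genes of those lists that passed, and the 5 nearest to DPYSL3 and to NRP1. Any other gene, such as PAX8, NEFL or the VEGF receptors at 0, was chosen after its values were seen. Alternatives were another pseudocount, filters, scalings, voom on recovered reads, a replicate block and leaving out each library.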

Additional observations from a re-analysis of the deposited data

How the results depend on the processing

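Over 116 values (the 10 log2 differences under the alternatives that could give them), 111 moved by less than the spread between replicates and 5 by more. The 5 were SEMA3A (0.11) and NRP2 (-0.53) with a pseudocount of 0.1, DPYSL2 and PLXNB2 under quantile normalization (-0.53 and -0.01), and DPYSL2 with totals without mitochondrial genes (-0.52). Filters and the replicate block cannot change a gene's difference, and leaving out a library shifts it only within the replicate spread. The tally of 111 is therefore no measure of robustness, since only the pseudocount, the scalings and voom could give a larger move. The difference of DPYSL3 ran from -1.92 to -1.59 and that of SEMA3C from -1.28 to -0.95. NRP1 changed sign without doxycycline replicate 1 (0.19). Genes with both doxycycline libraries below both untreated numbered 7 of 10 in the main setting and 4 of 8 under quantile normalization. Under median-of-ratios scaling, by voom and with totals without mitochondrial genes they numbered 5 of 10. When 1 library was left out they numbered 7 to 8, but leaving out a library cannot lower this count. The share of all genes in that position is given only for the main setting and the genes in the fit. These counts across settings therefore have no share of all genes beside them and are a description only.

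Genes past the limma threshold numbered 0, but 261 when the filter was raised to a mean of 5 FPKM and 121 with voom. Pathway genes outside the 10 numbered 0, but 2 and 1 in those fits. At an unadjusted p under 0.05, the counts of 2204 and 10 became 1424 and 6 under that higher filter, where fewer genes were tested. Leaving out 1 library gave 0 to 3942 and 0 to 16 past the threshold, and 659 to 5262 and 4 to 19 unadjusted, where a lone library is assumed to vary like the other group. The cause of these shifts was not tested. Replicate numbers are shared by the groups, but nothing in the labels pairs them. Same-numbered deviations correlated across genes at 0.207, and a fit with the replicate block passed 784 genes and 4 pathway genes (SEMA7A, SEMA6B, NRCAM and RND3). SEMA3A and NRP2 are limited by depth, at 0 to 3 and 61 to 131 reads.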

Other observations

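Some family members below 1 FPKM also differed between groups in both libraries, chosen here after their values were seen and without a test. PLXNB3, a B-type plexin, held 0.16 and 0.18 FPKM (21 and 23 reads) with doxycycline, against 0.49 and 0.47 FPKM (55 and 57 reads) in untreated cells. PLXNA2, an A-type plexin, went the other way, at 0.35 and 0.32 FPKM (90 and 82 reads) with doxycycline, against 0.15 and 0.19 FPKM (33 and 45 reads) in untreated cells. SEMA5B, a transmembrane semaphorin, held 0.31 and 0.58 FPKM (50 and 91 reads) with doxycycline, against 0.059 and 0.10 FPKM (8 and 15 reads) in untreated cells. DPYSL5, the brain relative of DPYSL3, held 0.17 and 0.54 FPKM (23 and 70 reads) with doxycycline, against 0.81 and 1.15 FPKM (91 and 142 reads) in untreated cells. SEMA5A was high in doxycycline replicate 2 alone, at 1.99 FPKM against 0.37 FPKM in replicate 1, and was at 0.18 and 0.45 FPKM in untreated cells.

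DPYSL3 and CRMP1 are often used as marks of neuronal cells, and other neuron markers differed in direction. NEFL, a neurofilament subunit, held 113 and 80.1 FPKM with doxycycline, against 51.9 and 50.2 FPKM in untreated cells (limma adjusted p = 0.167). MAP2, a dendritic microtubule protein, held 0.60 and 0.46 FPKM with doxycycline, against 0.044 and 0.06 FPKM in untreated cells. RBFOX3, SNAP25 and SYT1 were below in both doxycycline libraries, each at no more than 16 reads in any library. TUBB3 overlapped between groups at 0.91 and 0.52 FPKM with doxycycline and 0.43 and 0.62 FPKM in untreated cells, ELAVL3 overlapped at no more than 2 reads, and STMN2, ELAVL4, GAP43 and NEFM were at 0 in all 4. Without NEFL, the 10 markers summed to 1.68 and 1.05 FPKM with doxycycline, against 0.646 and 0.913 FPKM in untreated cells.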
